A study of Rattus norvegicus with 5 samples.

Results

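Glycolysis and hypoxia response genes were read as 57 listed genes, which cover the oxygen sensors and subunits of hypoxia-inducible factor (HIF), its target genes, glucose and lactate transporters, the glycolytic enzymes and the enzymes that regulate glycolysis at its branch points. They were found by matching the RefSeq accession of each array probe to a rat gene symbol, and 56 of them were measured among the 15154 genes on the arrays. Egln1, which encodes the main HIF prolyl hydroxylase, was matched by no probe, so that its expression was not analysed here.

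The cells were FRT cells, an epithelial line from the thyroid of Fischer rats, isolated for RNA on day 5 of culture. The 3D group consisted of 4 cultures embedded in Matrigel, a basement membrane extract, in which the cells form follicle-like structures with a lumen. The 2D group consisted of confluent monolayers, of which 4 cultures were combined into 1 pool. Each 3D culture was labelled with Cy5 and hybridized against the Cy3-labelled 2D pool on its own array, and on a further array the dyes were swapped between the 2D pool and a pool of the 3D cultures. The dye-swap array therefore held no independent sample, the spread between 2D cultures was not measured, and Matrigel and the shape of the culture cannot be told apart. No genotype, drug or oxygen level differed between the groups by the labels. All values below are log2 ratios of 3D over 2D signal, so that a positive value means higher in 3D.

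Of 12 thyroid epithelial markers, 9 were detected above background, and Pax8, Epcam and Cdh16 passed as higher in 3D at log2 fold changes of 0.71, 0.28 and 0.53. Tg, Slc5a5 and Tshr, which encode thyroglobulin, the iodide transporter and the thyrotropin receptor, were above background on 0 arrays. Among markers of other cell types, 3 of 6 fibroblast, 1 of 4 endothelial and 1 of 4 leukocyte genes were above background on at least 1 array, of which Pdgfra passed as higher in 3D by 0.55. Whether other cells took part in the results below was not tested. As in any bulk RNA measurement, fewer cells of a type and less RNA per cell cannot be told apart.

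HIF is a transcription factor made of an oxygen-regulated alpha subunit and a stable partner. When oxygen is plentiful, prolyl hydroxylases mark the alpha subunit, the VHL ubiquitin ligase binds it, and it is degraded. When oxygen falls, the alpha subunit accumulates and raises transcription of genes for glucose uptake, glycolysis, blood vessel growth, collagen modification and removal of mitochondria. Glycolysis itself turns glucose into pyruvate, which is either reduced to lactate or enters mitochondria through pyruvate dehydrogenase, and most of its steps can be carried out by several isoforms encoded by separate genes. Much of HIF control acts on the stability of the protein, which RNA does not show.

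Across the 56 measured genes, no common direction was seen. At a false discovery rate of 0.01 over all genes (limma), 11 members were higher in 3D, or 19.6% of them, against 14.4% of all genes tested. Another 12 were lower, or 21.4%, against 11.5% of all genes, and 33 did not pass. With the dye as a further term of the model, 10 were higher (13.9% of all genes) and 15 were lower (12.1% of all genes), and 10 and 12 passed both ways. In that fit the dye-swap array counts as much as all replicate arrays together, and p-values come from the replicate arrays alone. Without the dye term, the median log2 fold change of the members was -0.05 and that of all genes 0.0031. Of the 23 members that passed, 22 had the same sign on all 5 arrays, the exception being Hk1, at -0.02 on the dye-swap array. For comparison, 97.1% of the 3918 genes that passed on the whole array had the same sign throughout. Without the offset in background correction, 7 were higher and 8 lower, and Vhl, Kdm3a, Gpi, Hk1, Slc2a1, Tpi1, Pgam1 and Pfkfb1 did not pass. Slc2a1, Hk1 and Pfkfb1 also did not pass with the scanner software's processed signals, and Hk1 did not pass when any 1 replicate array was left out. Most changes were small: 47 of 56 members stayed below 0.5 in absolute log2 fold change, and Vegfa and Bnip3 went beyond 1, as did Adm and Pfkm with a normexp offset of 0.

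**Figure D1:**
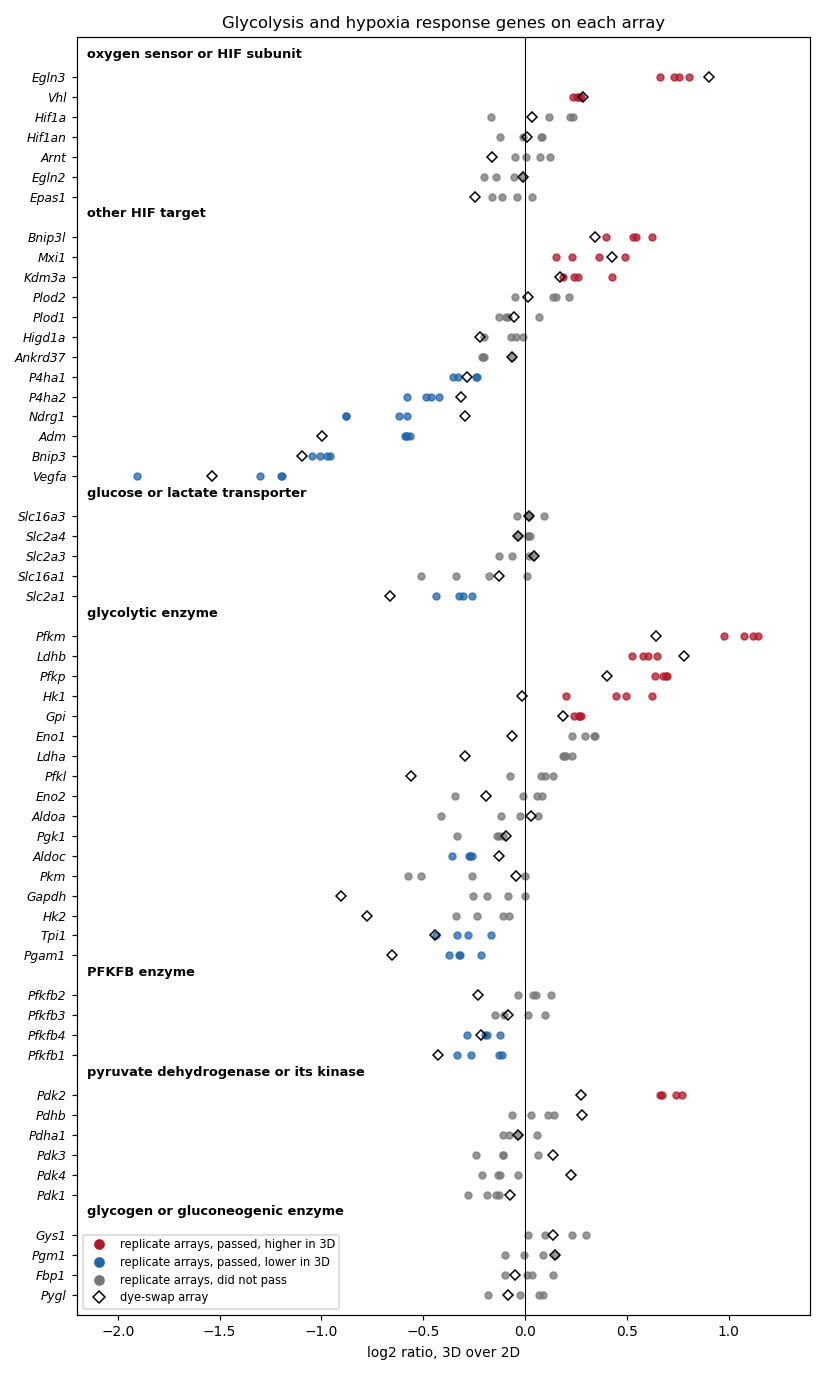
Log2 ratio of 3D over 2D (horizontal axis) for each of the 56 measured members, grouped by role and ordered by fitted fold change. Filled points are the 4 replicate arrays, coloured by whether the gene passed as higher or lower in 3D, and open diamonds are the dye-swap array. Vegfa and Bnip3 lie farthest to the left, Pfkm and Egln3 farthest to the right, and most of the remaining genes lie within 0.5 of 0.

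Among oxygen sensors and HIF subunits, 2 of 7 measured genes passed, both as higher in 3D. Egln3, a HIF prolyl hydroxylase that is itself a well-known HIF target, gave log2 ratios of 0.66, 0.73, 0.81 and 0.75 on the replicate arrays and 0.90 on the dye-swap array. All 5 arrays lay on the same side within a narrow range, and the fitted log2 fold change was 0.77 (95% confidence interval 0.67 to 0.87, adjusted p = 1.5e-06), or 1.71-fold. Vhl, the substrate receptor that binds hydroxylated HIF alpha, was higher by 0.26 (adjusted p = 0.00038), with all arrays between 0.23 and 0.29. The HIF subunits themselves did not pass. Hif1a was at 0.09 with a 95% confidence interval of -0.05 to 0.22, Epas1, which encodes the second HIF alpha subunit, at -0.11 with an interval of -0.22 to 0.0042, and Arnt, their common partner, at -0.0025 with an interval of -0.11 to 0.11. Arnt was above background on only 2 arrays in 3D and 0 in 2D. The hydroxylases Egln2 and Hif1an, the latter an asparaginyl hydroxylase that blocks HIF activity, were at -0.08 and 0.0073 and did not pass.

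The HIF targets outside glycolysis moved in both directions, with 3 of 13 higher (23.1%, against 14.4% of all genes) and 6 of 13 lower (46.2%, against 11.5%). Their median over the mean of the replicate arrays was -0.17, against 0.0064 for all genes, and it was -0.22 on the dye-swap array. The genes with the largest falls encode a secreted angiogenic factor, a mitophagy receptor, a vasoactive peptide and a stress-response protein. Vegfa, the main growth factor for blood vessels, gave -1.91, -1.30, -1.20 and -1.20 on the replicate arrays and -1.54 on the dye-swap array. Replicate 1 was lowest, well apart from the other 3. The fitted change was -1.43 (95% confidence interval -1.65 to -1.21, adjusted p = 3.4e-06), which is 2.69-fold lower in 3D. Of 3 further Vegfa probes, those above background gave means over the 5 arrays of -1.17 and -0.93, and the third was at -0.12 and not above background on any array. The mean of all 4 Vegfa probes gave -0.91.

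Bnip3, a receptor on the outer mitochondrial membrane that directs mitochondria to autophagy, gave -0.96, -0.97, -1.05 and -1.01 on the replicate arrays and -1.09 on the dye-swap array. The arrays nearly coincided. The fitted change of -1.02 (adjusted p = 1.5e-07) was 2.02-fold lower in 3D. Its paralogue Bnip3l, another mitophagy receptor and also a HIF target, went the other way, at 0.54, 0.62, 0.40 and 0.53 on the replicate arrays and 0.34 on the dye-swap array. All 5 Bnip3l values were above 0 while all 5 Bnip3 values were below it, and Bnip3l passed at 0.49 (adjusted p = 4.7e-05).

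Adm, which encodes the vasodilator peptide adrenomedullin, gave -0.59, -0.57, -0.59 and -0.58 on the replicate arrays and -0.998 on the dye-swap array. The replicate arrays had an SD of 0.0099, and the dye-swap array lay clearly below them. The fitted change was -0.66 (adjusted p = 4.1e-05), and it was larger with a normexp offset of 0, at -1.07, and with the scanner software's processed signals, at -1.31. Ndrg1, a stress-response gene linked to differentiation, gave -0.88, -0.88, -0.58 and -0.62 on the replicate arrays and -0.29 on the dye-swap array. Here the dye-swap array showed the smallest fall, and the fitted change was -0.65 (adjusted p = 0.00017).

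The prolyl 4-hydroxylase alpha subunits, which modify collagen in the endoplasmic reticulum, were both lower in 3D, P4ha1 at -0.29 (adjusted p = 0.00033) and P4ha2 at -0.45 (adjusted p = 4.8e-05), with the same sign on all arrays. With the scanner software's processed signals P4ha1 was at -0.57. The lysyl hydroxylases of collagen did not pass. Plod1 was at -0.06, and Plod2 at 0.09 with its probe not above background on any array. On the higher side were Mxi1, a MAX-binding repressor that opposes MYC, at 0.33 (adjusted p = 0.0011) and Kdm3a, a histone demethylase, at 0.26 (adjusted p = 0.002). Mxi1 was at 0.62 with an offset of 0 and at 0.83 with the processed signals. Ankrd37 and Higd1a, a mitochondrial protein induced by hypoxia, were at -0.15 and -0.11 and did not pass.

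The DNA just before the transcription start of some of these genes is shown because Bnip3, P4ha2 and Egln3 all belong to the HIF system and yet differ in direction and in these letters. The sequences are from RefSeq (GRCr8), 250 bases that end before the annotated start, written 5′ to 3′ along the gene, and capitals mark ACGTG or GCGTG, the core letters of hypoxia response elements, on either strand (CACGT or CACGC on the other strand). The palindrome CACGTG, also known as an E-box, holds the letters on both strands and was counted once.
Bnip3 promoter (chr1:203154963-203155212, minus strand): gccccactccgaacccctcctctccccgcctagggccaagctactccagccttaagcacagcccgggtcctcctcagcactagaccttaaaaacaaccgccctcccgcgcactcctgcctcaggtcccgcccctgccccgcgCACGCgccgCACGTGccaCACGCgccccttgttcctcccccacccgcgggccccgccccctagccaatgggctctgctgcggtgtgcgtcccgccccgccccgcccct
P4ha2 promoter (chr10:38743644-38743893, plus strand): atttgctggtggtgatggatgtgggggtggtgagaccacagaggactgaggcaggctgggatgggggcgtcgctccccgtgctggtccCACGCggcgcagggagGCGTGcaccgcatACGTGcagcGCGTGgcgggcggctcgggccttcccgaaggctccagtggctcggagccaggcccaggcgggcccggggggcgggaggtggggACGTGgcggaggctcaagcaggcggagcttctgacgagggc
Egln3 promoter (chr6:77411016-77411265, minus strand): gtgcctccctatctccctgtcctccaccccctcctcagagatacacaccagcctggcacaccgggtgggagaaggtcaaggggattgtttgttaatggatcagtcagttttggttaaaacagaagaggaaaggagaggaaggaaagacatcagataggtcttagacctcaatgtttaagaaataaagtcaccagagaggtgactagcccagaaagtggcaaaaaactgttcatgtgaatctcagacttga
Bnip3 held 3 such sites, at 108, 99 and 90 bases before the start, the second of which was CACGTG. P4ha2 held 5. Egln3, the member with the second largest rise, held 0 in this window. Within windows that run from 250 bases before to 50 after each start, 71.2% of the 52 members with a window held the letters at least once, against 52.4% of 12384 measured genes. The members' windows also had a higher GC content, with a median of 63.65% against 58% in measured genes (the window richest in GC where a gene had several). The share was 80% of the 10 higher members, 54.5% of the 11 lower members and 73.3% of the 30 members that did not pass, the remaining window being that of Egln1. Some genes had several windows, which raises a share counted by gene. Counted by window, the share was 66.7% for higher members, 50% for lower members and 69.7% for those that did not pass. Over all member windows it was 65.5%, against 51.6% for measured genes. The printed genes were picked for their contrast and run against the order of higher above lower members, so they do not stand for the members. A match of these letters is a description of the sequence and not a binding site. Vegfa and Adm held none in their windows, which says nothing of sequence farther away. Bnip3l, Ndrg1, Pgk1, Slc2a3 and Slc2a4 had no window in the table.

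Among glucose and lactate transporters, only Slc2a1 passed. Slc2a1, the main glucose transporter of most epithelial cells (GLUT1), was lower by -0.40 (95% confidence interval -0.53 to -0.26, adjusted p = 0.0006), with replicate arrays between -0.44 and -0.26 and the dye-swap array at -0.66. Slc2a3 and Slc2a4, which encode the neuronal and the insulin-responsive glucose transporter, were not above background on any array, nor was Slc16a3, the lactate exporter that is a HIF target. Slc16a1, a carrier of lactate and pyruvate, ranged from -0.51 to 0.01 over the replicate arrays and did not pass (-0.23, adjusted p = 0.03).

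The glycolytic enzymes had members on both sides of 0. Of 17 genes, 5 passed as higher (29.4%, against 14.4% of all genes) and 3 as lower in 3D (17.6%, against 11.5%), and the median over the mean of the replicate arrays was -0.05. With the dye term, 4 were higher and 6 lower, against 13.9% and 12.1% of all genes. The median over the 17 genes was 0.00, -0.07, 0.06 and -0.03 on the replicate arrays and -0.09 on the dye-swap array, against 5e-04 to 0.012 for all genes. The probes of this group were bright, with a median brighter than 97.1% of the genes' probes, a measure of the signal and not of transcript abundance.

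Phosphofructokinase, which catalyses the committed step of glycolysis, showed the widest contrast. Pfkm, the isoform named for muscle, gave 0.98, 1.12, 1.14 and 1.07 on the replicate arrays and 0.64 on the dye-swap array. The dye-swap array was the lowest but still well above 0, and the fitted change was 0.99 (95% confidence interval 0.83 to 1.15, adjusted p = 4.7e-06), or 1.99-fold. Pfkp, the platelet isoform, gave 0.64, 0.69, 0.68 and 0.70 on the replicate arrays and 0.40 on the dye-swap array. It rose by 0.62 (adjusted p = 1.3e-05). Pfkl, the liver isoform, gave 0.10, -0.07, 0.08 and 0.14 on the replicate arrays and -0.56 on the dye-swap array. The replicate arrays of Pfkl lay on both sides of 0, and the dye-swap array lay far below them. The fitted change of -0.06 did not pass (adjusted p = 0.66). It was -0.25 with the dye term, which weights the dye-swap array as much as all replicate arrays together.

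Lactate dehydrogenase interconverts pyruvate and lactate and is a tetramer of subunits encoded by Ldha, a HIF target, and Ldhb. Ldhb gave 0.60, 0.65, 0.58 and 0.52 on the replicate arrays and 0.78 on the dye-swap array. All arrays showed the rise, with a fitted change of 0.63 (95% confidence interval 0.52 to 0.73, adjusted p = 6.1e-06), or 1.54-fold. Ldha gave 0.20, 0.19, 0.19 and 0.23 on the replicate arrays and -0.29 on the dye-swap array. The replicate arrays of Ldha agreed closely while the dye-swap array lay on the other side of 0, the gene did not pass (0.10, adjusted p = 0.37), and its dye effect was 0.25 (adjusted p = 0.0096). Gapdh and Pfkl were the other members with a dye effect at this threshold.

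At the first step, hexokinase, the isoforms lay on opposite sides of 0. Hk1, the housekeeping isoform, was at 0.35 (adjusted p = 0.0093), with replicate arrays from 0.20 to 0.62 and the dye-swap array at -0.02, and did not pass with the dye term (0.21, adjusted p = 0.044). Hk2, the inducible isoform and a HIF target, was at -0.31 and did not pass (adjusted p = 0.026), whereas with the dye term it passed at -0.48 (adjusted p = 0.00013). Gpi, the next enzyme in the pathway, rose by 0.25 (adjusted p = 0.00073) with all arrays between 0.18 and 0.28.

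From aldolase to phosphoglycerate mutase, the 3 enzymes that passed were lower in 3D. Pgam1, phosphoglycerate mutase, fell by 0.38 on the log2 scale (adjusted p = 0.00092), and Tpi1, triose phosphate isomerase, fell by 0.33 (adjusted p = 0.00059), with all 5 arrays below 0 for each and a further Tpi1 probe at -0.39. Aldoc, the brain isoform of aldolase, was not above background in 3D on any array and was above it on 4 arrays in 2D, so that the size of its change is uncertain. The fitted change was -0.26 (adjusted p = 0.0013), with -0.36 to -0.26 over the replicate arrays and -0.13 on the dye-swap array, and it was -0.71 with an offset of 0 and -1.10 with the scanner software's processed signals. Gapdh, which is often used as a reference gene, was read by 3 probes at means of -0.29, -0.41 and -0.52. Its brightest probe ran from 0.00 to -0.26 over the replicate arrays, with -0.91 on the dye-swap array, and did not pass (adjusted p = 0.083), while with the dye term it passed at -0.52 (adjusted p = 6.8e-05). Enzymes such as Gapdh have processed copies in rodent genomes, and whether probes also bound transcripts of such copies was not tested.

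The remaining enzymes did not pass. Aldoa was at -0.09, Pgk1 at -0.16, Eno2 at -0.08 and Pkm at -0.28, the last with replicate arrays spread from -0.57 to -0.0026. In the authors' value table, fitted in the same way, Pgk1 passed as lower at -0.22 (adjusted p = 0.0046). Eno1 was at 0.23 (adjusted p = 0.017), with 0.23 to 0.34 over the replicate arrays and -0.06 on the dye-swap array.

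**Figure D2:**
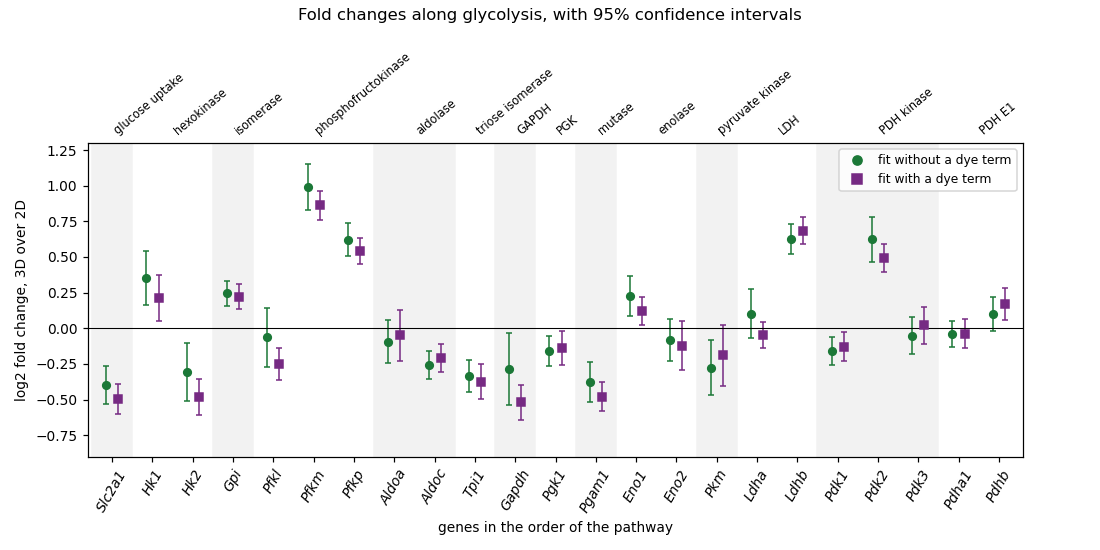
Fitted log2 fold change of 3D over 2D (vertical axis) for glucose uptake, the glycolytic enzymes and pyruvate dehydrogenase with its kinases, in pathway order. Circles are the fit without and squares the fit with a dye term, and bars are 95% confidence intervals. Pfkm, Pfkp, Ldhb and Pdk2 stand above 0 in both fits, whereas Gapdh, Hk2 and Pfkl move downward once the dye term is included.

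Among enzymes that set the level of the bisphosphate activator of phosphofructokinase (the PFKFB family), 2 of 4 passed, both lower: Pfkfb1 at -0.25 (adjusted p = 0.0048) and Pfkfb4 at -0.20 (adjusted p = 0.0033). Neither call held when some single arrays were left out: Pfkfb1 did not pass without replicate 2 or 4 (adjusted p = 0.026 and 0.022), nor Pfkfb4 without replicate 2, 3 or 4 (adjusted p = 0.020, 0.016 and 0.016). Pfkfb4 was at -0.96 with the scanner software's processed signals and at -0.49 with an offset of 0. Pfkfb3, the isoform best known as a HIF target, was at -0.05 and Pfkfb2 at -0.0089. Their probes were dim, above background on 4 arrays in 3D and 1 in 2D for Pfkfb3, and on 2 and 1 for Pfkfb2.

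Pyruvate dehydrogenase kinases phosphorylate and switch off pyruvate dehydrogenase, and Pdk1 is the isoform usually described as a HIF target. Pdk2, a widely expressed isoform, gave 0.66, 0.67, 0.74 and 0.77 on the replicate arrays and 0.27 on the dye-swap array. It was above 0 on every array, least on the dye-swap array, and rose by 0.62 (95% confidence interval 0.47 to 0.78, adjusted p = 8.7e-05). Pdk1 gave -0.19, -0.28, -0.14 and -0.13 on the replicate arrays and -0.07 on the dye-swap array. It was below 0 on every array, but its change of -0.16 did not pass (adjusted p = 0.016). Pdk3 was at -0.05, Pdk4 at -0.05 with no array above background, and the subunits of the dehydrogenase itself, Pdha1 and Pdhb, at -0.04 and 0.10, and none of these passed. The enzymes of glycogen and gluconeogenesis did not pass either, with Gys1 at 0.16 (adjusted p = 0.035), Pgm1 at 0.06, and Pygl and Fbp1 at -0.03 and 0.0068 without signal above background.

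The sequences before the starts of Slc2a1, Pfkm and Pdk2 are shown for comparison with those of Bnip3, P4ha2 and Egln3, because these genes carry the contrasts within glucose metabolism.
Slc2a1 promoter (chr5:138002272-138002521, plus strand): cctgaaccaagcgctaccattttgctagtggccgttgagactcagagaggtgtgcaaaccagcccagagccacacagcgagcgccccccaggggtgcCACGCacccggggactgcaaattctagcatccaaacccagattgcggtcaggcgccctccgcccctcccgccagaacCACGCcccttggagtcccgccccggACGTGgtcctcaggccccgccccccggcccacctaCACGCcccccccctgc
Pfkm promoter (chr7:131113849-131114098, plus strand): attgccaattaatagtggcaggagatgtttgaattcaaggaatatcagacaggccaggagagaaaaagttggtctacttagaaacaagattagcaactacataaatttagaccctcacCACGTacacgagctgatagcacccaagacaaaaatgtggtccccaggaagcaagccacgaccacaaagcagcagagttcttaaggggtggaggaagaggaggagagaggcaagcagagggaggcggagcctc
Pdk2 promoter (chr10:80483913-80484162, minus strand): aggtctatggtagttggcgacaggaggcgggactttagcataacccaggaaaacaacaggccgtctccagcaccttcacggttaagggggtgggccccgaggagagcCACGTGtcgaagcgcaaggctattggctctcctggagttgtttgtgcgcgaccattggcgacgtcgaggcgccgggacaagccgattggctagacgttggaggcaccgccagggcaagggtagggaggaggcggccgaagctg
Slc2a1, which was lower in 3D, held 4 sites of the letters. Pfkm and Pdk2, both higher, held 1 each, which for Pdk2 was CACGTG at 143 bases before the start. These genes were also picked: over all members with a window, the letters were found in 80% of the higher and 54.5% of the lower ones. Counted by window, these shares were 66.7% and 50%. By role, the letters were found in 13 of 16 glycolytic enzymes with a window and in 9 of 11 other HIF targets. They were found in 3 of 8 oxygen sensors and HIF subunits, the unmeasured Egln1 included, and in 1 of 4 PFKFB enzymes. The remaining roles had 5 of 6 (pyruvate dehydrogenase and its kinases), 4 of 4 (glycogen and gluconeogenesis) and 2 of 3 (transporters). The share over measured genes was 52.4%, at a lower GC content than that of the members.

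Isoforms of the same step were then compared within each array, as the difference between their log2 ratios, in 17 of 18 listed pairs. With 4 replicate arrays the exact sign-flip permutation test (two-sided) cannot give a p below 0.13, or 0.1518 after adjustment over the 17 pairs, so that no pair could pass and the number of arrays of the same sign is given instead. The difference kept its sign on all 4 replicate arrays in 14 pairs and on all 5 arrays in 13. These counts are a description only, because all arrays share the 2D pool and the share among other gene pairs was not counted. The widest difference was Bnip3 minus Bnip3l, at -1.52 ± 0.06 (SD, n = 4) and -1.44 on the dye-swap array. Pfkl minus Pfkm was -1.02 ± 0.14 with -1.20 on the dye-swap array, and Pfkl minus Pfkp was -0.62 ± 0.10 with -0.96. Pdk1 minus Pdk2 was -0.90 ± 0.04 and only -0.35 on the dye-swap array. Hk1 minus Hk2 was 0.63 ± 0.15 with 0.76 on the dye-swap array, although neither gene passed in both fits. Ldha minus Ldhb was -0.39 ± 0.07 on the replicate arrays and -1.08 on the dye-swap array, of 1 sign but far apart in size. For P4ha1 minus P4ha2, both of which fell, the difference was 0.20 ± 0.12. Pairs in which 1 partner was not above background, such as Slc2a1 and Slc2a3, measured little beyond the brighter partner.

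**Figure D3:**
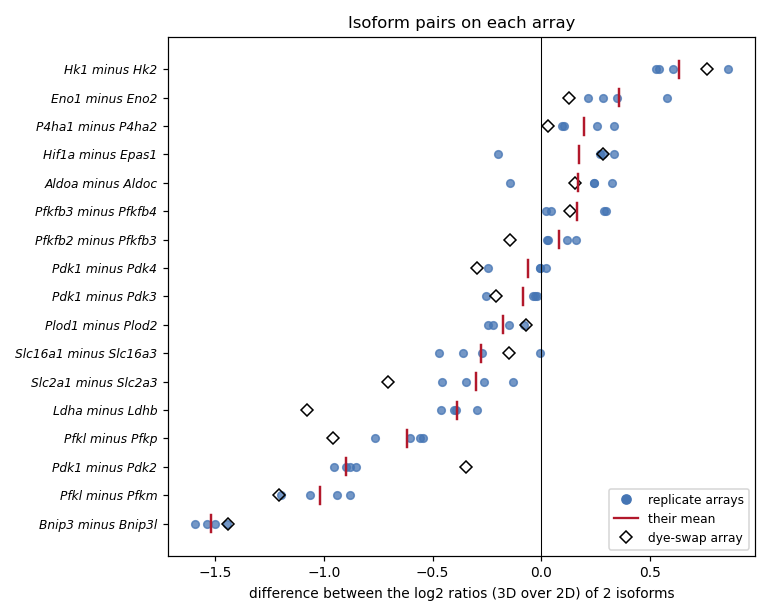
Difference between the log2 ratios (3D over 2D) of 2 isoforms (horizontal axis) for the 17 measured pairs. Points are the 4 replicate arrays, red bars their mean and open diamonds the dye-swap array. Bnip3 minus Bnip3l lies near -1.52 and Hk1 minus Hk2 near 0.63, with all 5 arrays on the same side of 0 for both.

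The glycolytic enzymes and the other HIF targets are set side by side here without a test between the lists. Among glycolytic enzymes 8 of 17 passed, 5 upward, and among other HIF targets 9 of 13 passed, 6 of them downward, where 14.4% of all genes passed as higher and 11.5% as lower. With the dye term, 4 glycolytic enzymes were higher and 6 lower, so that their majority was also downward. The other HIF targets stayed at 3 higher and 6 lower, where 13.9% of all genes passed as higher and 12.1% as lower. The dye term added Hk2, Pfkl and Gapdh to the lower glycolytic enzymes, and it gives the dye-swap array the weight of all replicate arrays together. The median of the other HIF targets was -0.21, -0.08, -0.20 and -0.21 on the replicate arrays and -0.22 on the dye-swap array, each below that of the glycolytic enzymes on the same array. Among the other HIF targets Bnip3l, Mxi1 and Kdm3a were higher and Vegfa, Bnip3, Adm, Ndrg1, P4ha1 and P4ha2 lower. Other roles also held HIF targets, not all of them listed here. Of these, Egln3 was higher and Slc2a1 lower, whereas Ldha, Pgk1, Pdk1, Hk2, Pfkfb3 and Slc16a3 did not pass. Under some alternative settings Pgk1, Pdk1 and Hk2 passed as lower, and Ldha passed in opposite directions. Slc16a3 was not above background on any array.

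**Figure D4:**
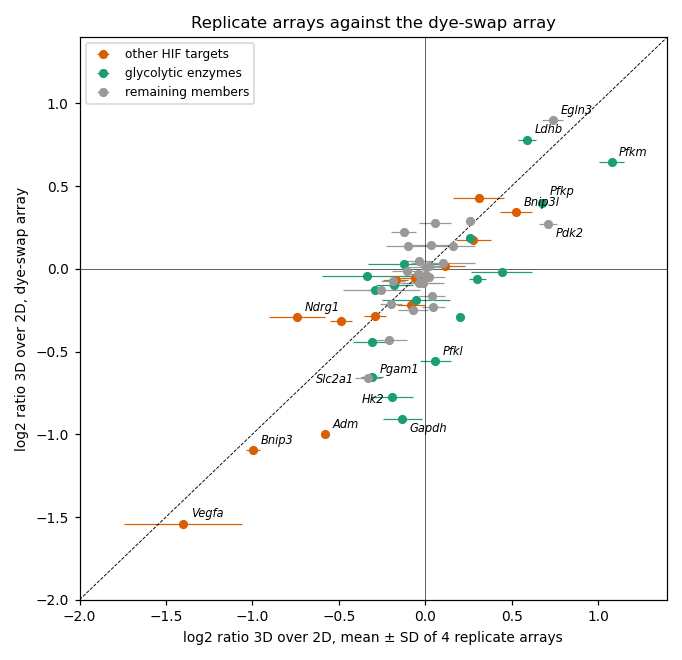
Log2 ratio of 3D over 2D on the dye-swap array (vertical axis) against the mean of the 4 replicate arrays (horizontal axis) for each measured member, with bars of 1 SD over the replicate arrays and a dashed line of equal values. Vegfa, Bnip3 and Egln3 lie near the line, while Gapdh, Hk2, Pfkl and Adm lie below it.

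These list medians depended on the normalization of dye intensity. When each array was only centred on its median, without loess, the median of the glycolytic enzymes became 0.77, 0.63, 0.86 and 0.83 on the replicate arrays but -1.12 on the dye-swap array, and that of the other HIF targets 0.21, 0.17, 0.36 and 0.29 but -0.75. In both lists the dye-swap array had the opposite sign to the replicate arrays. The average of both orientations was -0.17 for the glycolytic enzymes and -0.24 for the other HIF targets, against -0.05 and -0.20 with loess.

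**Figure D5:**
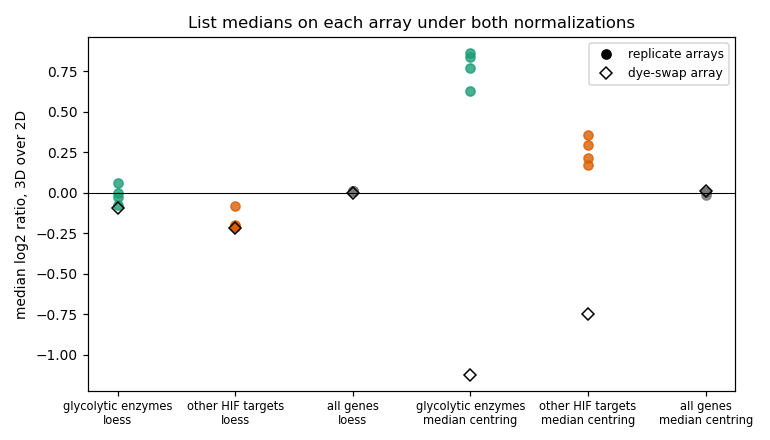
Median log2 ratio of 3D over 2D (vertical axis) of the 17 glycolytic enzymes, the 13 other HIF targets and all genes on each array, with loess and with median centring. Points are replicate arrays and open diamonds the dye-swap array. With median centring the glycolytic enzymes lie between 0.63 and 0.86 on the replicate arrays and at -1.12 on the dye-swap array, whereas with loess all 5 arrays lie between -0.09 and 0.06.

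A wider list of 86 genes of the same pathways was also read, of which 77 were measured, 13 were higher (16.9%) and 14 were lower (18.2%) in 3D, read against 14.4% and 11.5% of all genes. In the pentose phosphate pathway, which branches off glycolysis to make NADPH and ribose, all 6 measured genes passed. Of these, 4 were higher and 2 lower, with a median log2 fold change of 0.63. Tkt, transketolase, was higher by 1.00, whereas Rpe and Rpia, the epimerase and isomerase of the pentoses, were lower by -0.45 and -0.31. The rise of Tkt was smaller on the dye-swap array, at 0.42. Among 29 further HIF targets 3 were higher and 7 lower. Ccng2, an inhibitory cyclin, was higher by 0.89, and Hmox1, heme oxygenase, and Bhlhe40, a transcriptional repressor, were lower by -1.52 and -0.85. Elsewhere in the list Pgm2, a phosphoglucomutase, was higher by 0.80, and Pdp2, a phosphatase that reactivates pyruvate dehydrogenase, and Eno3, the muscle enolase, were lower by -0.90 and -0.88. Ca9, the carbonic anhydrase often used as a marker of hypoxia and picked here after its value was seen, was at -0.0094 (adjusted p = 0.90) with signal above background on all arrays.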

How the data were processed

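RNA was measured on 5 Agilent 2-colour rat arrays of 1 slide. The authors' deposited spot intensities are medians of spot and local background from Agilent Feature Extraction 10.7.3.1, without normalization. The deposited log10 ratios of the scanner software are background-subtracted and dye-normalized, Cy5 over Cy3. The authors' value table holds log2 ratios made with limma by normexp, loess and quantiles, and its columns run 3D over 2D on every array.

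From these median signals, log2 ratios were obtained with limma 3.58.1 (R 4.3.3) by normexp with an offset of 50, loess with controls at weight 0 and quantiles of average intensity. This offset makes fold changes of dim genes smaller. Spots of a probe were averaged, outlier spots (1.12% to 1.6% per array) were left out, and each gene was represented by its brightest probe. Probes follow the rn4 array design, and symbols come from RefSeq (GRCr8): 17998 of 30367 probes matched, for 15154 genes. Of the 57 members, 56 were measured and 49 were above background on at least 1 array of a condition; 0 spots were saturated.

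limma tested 1 coefficient over 5 arrays after turning the sign of the dye-swap array, with Benjamini-Hochberg adjustment over all genes. The dye-swap array holds pools of the same cultures, so p-values measure the spread between these arrays and leave out that between 2D cultures. The number of arrays limits the precision. A second fit added a dye term, into which any other feature of the dye-swap array also enters. Because only 1 array had swapped dyes, this fit matches that array exactly and weights it as much as all replicate arrays together. Its p-values measure the spread between the replicate arrays alone, so genes that pass only with the dye term rest on 1 unreplicated value. The fit was tested on simulated data. Replicate arrays correlated at r = 0.871 to 0.946 and with the dye-swap array at 0.734 to 0.765.

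Members that passed with an absolute log2 fold change of at least 0.5, and their paired isoforms, are given on every array. Of the wider list, at most 4 genes in each direction were named by size, and other genes of its pentose phosphate group beside them. A gene selected in this way is not reported here. Marker lists covered thyroid epithelial cells, fibroblasts, endothelial cells and leukocytes. The members, lists and tests were chosen with earlier results of these data known. Alternatives covered background correction, scanner signals, normalization, the dye term, arrays left out, probes and outlier spots.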

Additional observations from a re-analysis of the deposited data

Results flagged for a closer look

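Within the 4 replicate arrays, 4 of 56 members had a value far from the other 3 by Dixon's criterion, which chance meets in about 1 of 20 groups. Vegfa was lowest on the array of 3D replicate 1, at -1.91 against -1.30 to -1.20 on the others, and its 2 further probes above background were also lowest there. Ankrd37 on the array of replicate 2 was nearest to 0, at -0.0651 against -0.21 to -0.20. Aldoc was lowest on the array of replicate 2, at -0.36 against -0.27 to -0.26, with a probe close to background. Pgk1 was lowest on the array of replicate 2, at -0.33 against -0.14 to -0.11. Replicate 2 thus accounted for 3 of the 4 values, and the cause was not tested.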

How the results depend on the processing

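Over 16 alternatives, Egln3, Vegfa, Adm, Bnip3, Ndrg1, Pfkm, Pfkp, Ldhb and Pdk2 kept their direction and passed in 15, failing only with median centring, where 0 members were higher and 0 lower and only 7 of all genes passed. That setting also moved the median of the glycolytic enzymes from -0.05 to 0.74 and that of the other HIF targets from -0.17 to 0.14. Median centring with a dye term, chosen after seeing the data, gave 9 higher and 16 lower. With a normexp offset of 0, 7 members were higher and 8 lower: Vhl, Kdm3a, Gpi and Hk1 were no longer higher, and Slc2a1, Tpi1, Pgam1 and Pfkfb1 no longer lower. The median of the other HIF targets was then -0.26, and with the scanner software's processed signals -0.30. Leaving out 1 replicate array gave 10 higher, 10 to 12 lower, medians of -0.0991 to 0.0331 for the glycolytic enzymes (above 0 without replicate 4) and -0.21 to -0.16 for the other HIF targets, and 14 to 17 isoform pairs of 1 sign. Hk1 was lost without any 1 of the replicates, Pfkfb1 without replicate 2 or 4, and Pfkfb4 without replicate 2, 3 or 4. Without the dye-swap array 13 were higher and 15 lower, with Eno1 and Ldha added as higher and Ankrd37, Pdk1 and Pkm as lower. Gapdh passed as lower with the dye term, with the mean of its probes, with quantiles over all channels and in the authors' value table. Pgk1 passed as lower with quantiles over all channels and in the authors' value table. Both were also lower with median centring and a dye term. In that setting Ldha was lower as well, at -0.24, opposite to its value of 0.20 without the dye-swap array. Eno1 passed as higher with the scanner software's processed signals. The cause of these differences was not tested. No paired analysis was possible because the 2D cultures were pooled. Values of the 9 members not above background on at least 3 arrays of a condition are limited by signal.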
